A study of Rattus norvegicus with 8 samples.

Results

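The immediate early genes followed here are 10 genes: the bZIP factor genes Fos, Fosb, Fosl1, Jun, Junb and Atf3, the zinc finger factor gene Egr1, the nuclear receptor gene Nr4a1, the RNA-binding protein gene Zfp36, and Ier2. They were chosen by name, as the rows of each deposited table whose symbol matched. Both tables listed 8 of the 10, out of 18236 genes in the AD table and 14295 in the ASC table. Junb and Ier2 had no row and were not analysed here.

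RNA was sequenced from cells of the inguinal fat of wild-type Wistar rats, with 2 libraries in each of 4 groups. Adipocytes (AD) came from rats fed a high-fat sucrose diet (AD_HFS) or a control diet (AD_C) for 6 months. Their precursors, adipose-derived stem cells (ASC), came from rats fed the same diets (ASC_HFS and ASC_C). The AD cells had been differentiated in culture for 3 days with dexamethasone (5.0 µM), the phosphodiesterase inhibitor IBMX (0.5 mM) and insulin (10.0 µg/mL), then kept for 7 days with insulin alone. All cells were freed from the tissue with collagenase and grown in serum-containing medium before use. The labels give neither the sex nor the age of the rats, nor how long the ASC were cultured. They do not say if the paired libraries stand for different rats or different cultures, so each p measures only the spread between these libraries, which may be technical.

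Immediate early genes are transcribed soon after a cell meets a growth factor, a cytokine or a stress, because the factors that switch them on are already present. Among these are SRF with its partners, which bind CArG boxes, and CREB, which binds cAMP response elements (CRE). Fos and Jun family proteins pair to form AP-1, and most of these transcripts are short-lived. Enzymatic dissociation of a tissue is itself known to induce the class.

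Promoter sequences of 300 bases, 250 before to 50 after the annotated start, were at hand in RefSeq (rat build GRCr8) for 5 of the 8 listed members: Fosb, Fosl1, Egr1, Nr4a1 and Zfp36. The 4 with a CRE core or a CArG box are shown, because these are the elements the class is known for. The Fosb window held neither. Whether these elements bear on the diet difference was not tested. Capitals mark CRE cores (TGACG, or CGTCA on the other strand) and CArG boxes. The windows are chr1:212183635-212183934 (+ strand) for Fosl1, chr7:134259888-134260187 (+ strand) for Nr4a1, chr1:92799059-92799358 (- strand) for Zfp36 and chr18:26736828-26737127 (+ strand) for Egr1, each read 5′ to 3′ along the gene.
Fosl1: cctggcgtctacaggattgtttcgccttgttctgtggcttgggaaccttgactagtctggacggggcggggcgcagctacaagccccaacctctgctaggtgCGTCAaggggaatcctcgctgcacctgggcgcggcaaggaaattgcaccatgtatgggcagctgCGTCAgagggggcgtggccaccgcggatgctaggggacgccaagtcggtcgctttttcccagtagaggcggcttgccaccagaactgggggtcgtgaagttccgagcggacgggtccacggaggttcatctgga
Nr4a1: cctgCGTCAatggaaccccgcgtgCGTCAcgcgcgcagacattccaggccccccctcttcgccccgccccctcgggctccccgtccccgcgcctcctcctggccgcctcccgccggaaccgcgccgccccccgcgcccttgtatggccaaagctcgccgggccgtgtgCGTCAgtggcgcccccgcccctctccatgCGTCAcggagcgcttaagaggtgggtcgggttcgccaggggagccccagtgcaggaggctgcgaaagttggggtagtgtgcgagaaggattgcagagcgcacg
Zfp36: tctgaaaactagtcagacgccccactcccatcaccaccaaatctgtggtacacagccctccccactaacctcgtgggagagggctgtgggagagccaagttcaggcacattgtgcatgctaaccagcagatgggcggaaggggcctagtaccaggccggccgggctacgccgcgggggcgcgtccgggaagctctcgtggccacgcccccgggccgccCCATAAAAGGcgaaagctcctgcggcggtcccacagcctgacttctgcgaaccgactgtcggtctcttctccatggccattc
Egr1: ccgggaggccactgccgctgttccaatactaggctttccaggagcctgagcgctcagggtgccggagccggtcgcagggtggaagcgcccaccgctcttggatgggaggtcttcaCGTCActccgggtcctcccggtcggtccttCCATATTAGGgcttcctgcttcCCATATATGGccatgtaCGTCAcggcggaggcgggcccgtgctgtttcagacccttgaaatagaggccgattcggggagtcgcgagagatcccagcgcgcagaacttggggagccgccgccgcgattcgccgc

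The Nr4a1 window held 4 CRE cores, and those of Fosl1 and Egr1 held 2 each. CRE cores thus stood in 3 of the 5 members' windows, against 21.2% of all 33469 RefSeq rat promoter windows of this length. A CArG box was found in the Egr1 window, with 2 boxes, and in that of Zfp36, with 1, that is in 2 of 5 members against 1.64% of all windows. The EGR site GCGNGGGCG stood in Nr4a1 and Zfp36 (4.98% of all windows), the GC box GGGCGG in Fosl1, Nr4a1 and Zfp36 (33.1%), and the TATA box TATAAA in Fosb, on the opposite strand (14.2%). One GC box in Nr4a1 overlaps its EGR site. None of the 5 windows held the full CRE TGACGTCA (1.83% of all windows), the AP-1 site TGANTCA (7.33%) or the ETS core CCGGAAG (8.75%). Both strands were searched, and a match describes letters only.

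**Figure D1:**
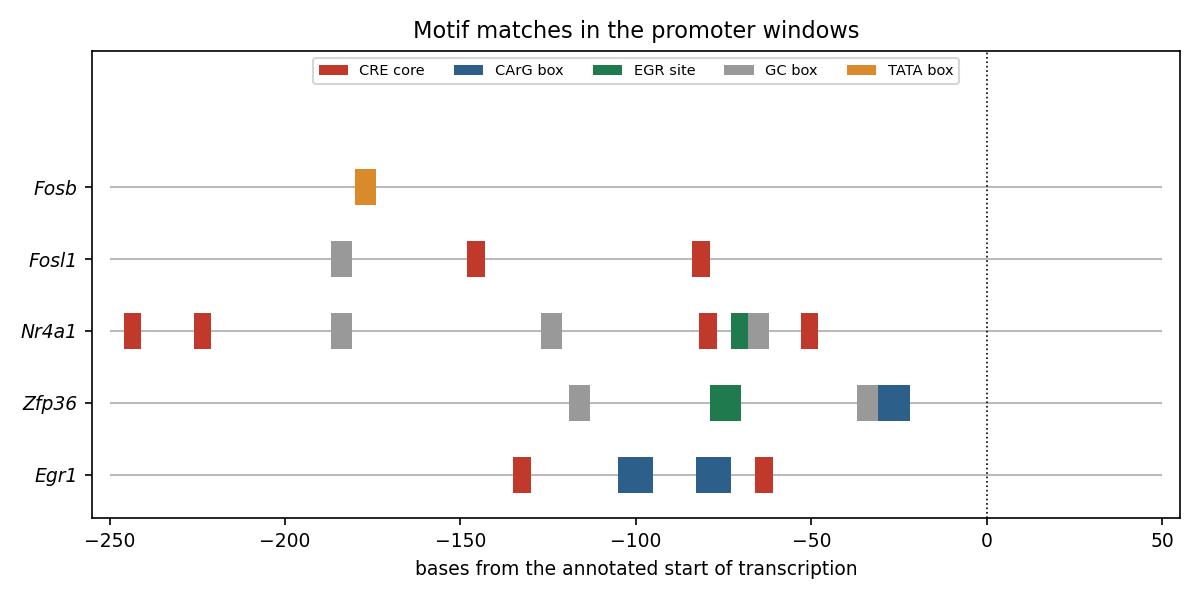
Motif matches in the promoter windows of the 5 listed members with a sequence, as boxes along the distance in bases from the annotated start of transcription (dotted line). CRE cores lie in Fosl1, Nr4a1 and Egr1, and CArG boxes in Zfp36 and Egr1, where the 2 boxes lie between the 2 CRE cores. In Nr4a1 a GC box covers the end of the EGR site.

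The first comparison asked how HFS precursors differed from control precursors before differentiation. In ASC_HFS, 7 of the 8 listed members rose, by 2.58-fold to 5.23-fold, and the eighth, Egr1, did not pass the test. Of all genes, 9.41% rose and 9.70% fell in this comparison. For the 7 that rose, both HFS libraries lay above both C libraries, which was so for 28.5% of all genes. Values below are normalized counts, that is, read counts recovered from the deposited values and divided by the authors' size factors, and p-values are adjusted over all genes in a limma-trend fit of log2(deposited value + 1). In these bulk libraries, more cells that express a gene and more RNA per cell cannot be told apart.

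Of the Fos family, whose proteins are the partners of Jun in AP-1, Fos (ENSRNOG00000008015) had 526 and 780 normalized counts in the ASC_HFS libraries, against 163 and 241 in the ASC_C libraries. Fosb (ENSRNOG00000046667) had 783 and 1106 in ASC_HFS, against 157 and 261 in ASC_C. Fosl1 (ENSRNOG00000020552), which encodes Fra-1, had 1047 and 1106 in ASC_HFS, against 243 and 371 in ASC_C. In each of the 3, the lower HFS library was well clear of the higher control library. Fos was 3.23-fold higher in ASC_HFS, with a log2 difference of 1.42 ± 0.28 (SE, adjusted p = 0.00387, limma-trend). Fosb was 4.52-fold higher (1.89 ± 0.29, adjusted p = 0.000772), and Fosl1 3.51-fold higher (1.64 ± 0.28, adjusted p = 0.00165).

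Jun (ENSRNOG00000026293), the core AP-1 subunit, had 1506 and 1585 normalized counts in ASC_HFS, against 475 and 723 in ASC_C. It was 2.58-fold higher, the smallest ratio of the 7, with a log2 difference of 1.30 ± 0.30 (adjusted p = 0.00890). Atf3 (ENSRNOG00000003745), a stress-induced bZIP factor, had 2077 and 2114 in ASC_HFS, against 402 and 703 in ASC_C. Its HFS libraries were nearly alike while its control libraries were not, and the ratio was 3.79 (log2 difference 1.85 ± 0.31, adjusted p = 0.00161).

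Nr4a1 (ENSRNOG00000007607), the nuclear receptor also called Nur77, whose promoter held 4 CRE cores, had 633 and 863 normalized counts in ASC_HFS, against 179 and 207 in ASC_C, a 3.88-fold difference (log2 difference 1.65 ± 0.26, adjusted p = 0.00106). Zfp36 (ENSRNOG00000058388) encodes tristetraprolin, which binds AU-rich elements and speeds the decay of cytokine mRNAs. It had 1543 and 2023 in ASC_HFS, against 353 and 329 in ASC_C. At 5.23-fold it was the member with the largest ratio, its log2 difference was 2.17 ± 0.28 (adjusted p = 0.000251), and it stood 65th of 14295 genes by that difference. The other 6 that rose stood between 113th (Fosb) and 385th (Jun).

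Egr1 (ENSRNOG00000019422), the zinc finger factor with CArG boxes in its promoter, had 663 and 1026 normalized counts in ASC_HFS, against 427 and 764 in ASC_C. Its groups overlapped, since the second control library was above the first HFS library. The log2 difference was 0.48 ± 0.32 (adjusted p = 0.318). For Fos, Fosb, Fosl1, Jun, Egr1 and Atf3 control replicate 2 was 1.48-fold to 1.79-fold above control replicate 1. The difference was at least 1.5-fold for 5 of the 8 members, against 15.7% of the 9000 genes with a mean of at least 50 reads.

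The ASC count rests on few and shallow libraries. ASC_HFS replicate 2 held 992618 reads, against 5851960 in ASC_HFS replicate 1 and 3339269 and 7290961 in ASC_C, and the members had 215 to 583 reads in it. With any 1 of the 4 ASC libraries left out, limma-trend called none of the members and none of the other genes, although 7 members kept an unadjusted p under 0.05 each time. limma-voom on the recovered reads called 7 members with all 4 libraries, against 11.9% of all genes higher. Its repeats with 1 library left out, added after seeing the data, called 6 to 8 members, and lost Jun without ASC_HFS replicate 1 (adjusted p = 0.0546). Thinned to the shallowest library, 6 members passed, and Jun did not (adjusted p = 0.0516). With all 8 libraries in 1 fit, 6 passed, and Fos did not (adjusted p = 0.0555).

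**Figure D2:**
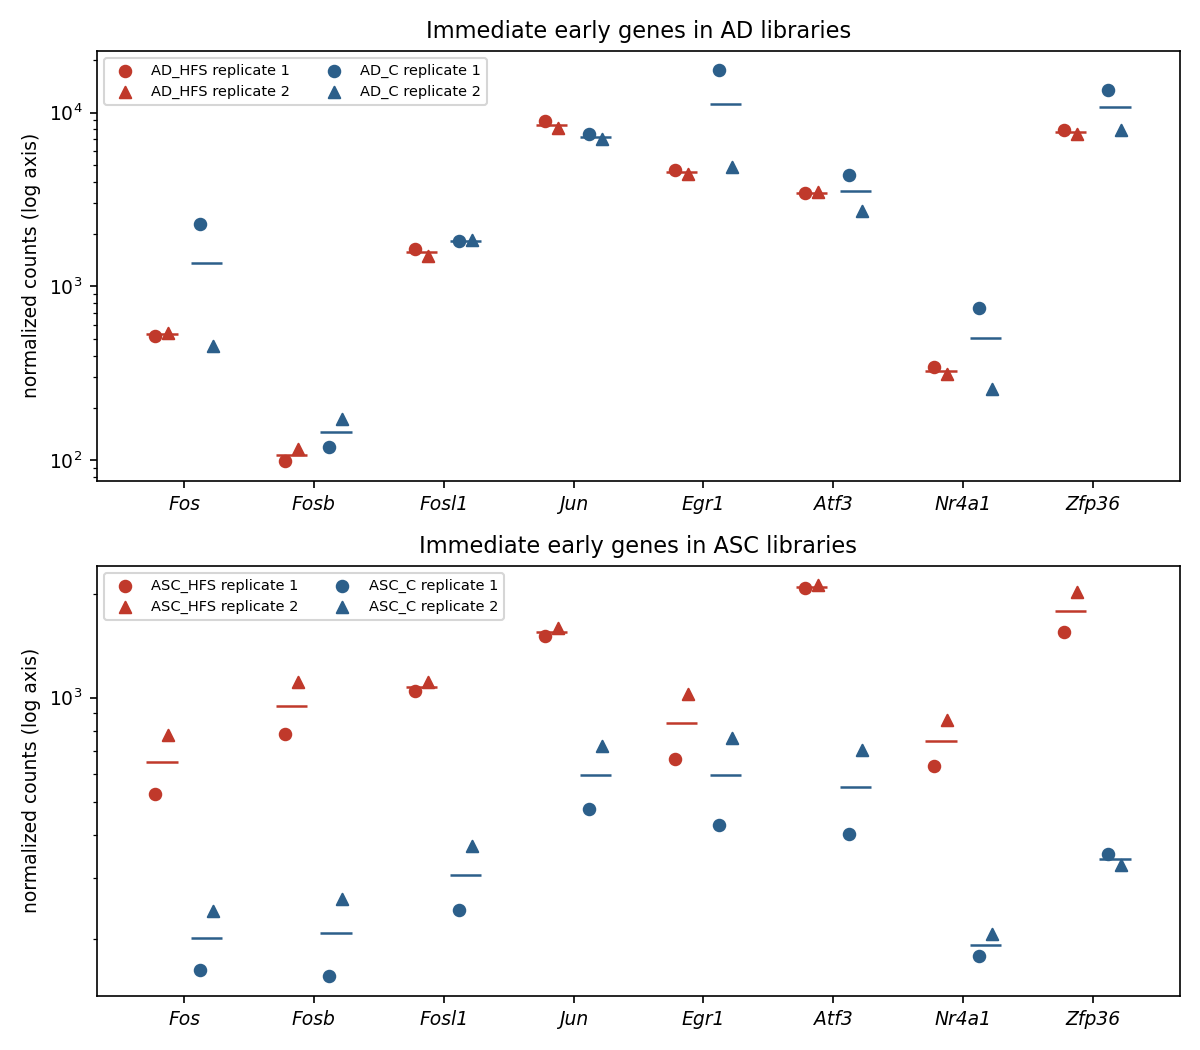
Normalized counts of the 8 listed members in every library (log axis, each table scaled on its own), AD above and ASC below, with HFS in red left of C in blue, replicate 1 as a circle, replicate 2 as a triangle and the group mean as a line. In ASC both HFS points lie above both C points for each member except Egr1, and in AD the replicate 1 point of AD_C stands high for Fos, Egr1, Nr4a1 and Zfp36.

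The second comparison asked whether the diets still differed after differentiation. None of the 8 members passed in AD by limma-trend, none had an unadjusted p under 0.05, and limma-voom also called none. Of all genes, 1.31% rose and 0.0329% fell in AD_HFS. The log2 differences ran from -0.99 to 0.22, and 7 of the 8 were negative.

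The AD_C libraries did not match for several members. Fos had 521 and 539 normalized counts in AD_HFS, against 2274 and 455 in AD_C. Egr1 had 4657 and 4445 in AD_HFS, against 17498 and 4855 in AD_C. Nr4a1 had 341 and 315 in AD_HFS, against 747 and 258 in AD_C. For these 3, AD_C replicate 1 was 4.99-fold, 3.60-fold and 2.89-fold above AD_C replicate 2, and the HFS libraries lay close to replicate 2. Zfp36 had 7976 and 7519 in AD_HFS, against 13465 and 7932 in AD_C, and Atf3 had 3425 and 3469 in AD_HFS, against 4391 and 2725 in AD_C, so that the replicates of AD_C differed 1.70-fold and 1.61-fold. In all, 5 of 8 members were at least 1.5-fold higher in replicate 1 than in replicate 2 of AD_C, against 8.86% of the 13527 genes with a mean of at least 50 reads. Of 23 other immediate early genes 15 were so, Arc, Egr2 and Gem by the most.

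The other 3 members were steadier. Jun had 8891 and 8101 normalized counts in AD_HFS, against 7478 and 7067 in AD_C (log2 difference 0.22 ± 0.10, adjusted p = 0.426). Fosl1 had 1646 and 1489 in AD_HFS, against 1812 and 1845 in AD_C (-0.20 ± 0.11, adjusted p = 0.505). Fosb had 98.6 and 116 in AD_HFS, against 119 and 172 in AD_C (-0.20 ± 0.14, adjusted p = 0.595). Their groups did not overlap, with Jun higher and Fosl1 and Fosb lower in HFS, and nor did those of Egr1, which was lower in HFS. The same held for 24.2% of all genes in the direction of Jun and 23.5% in the opposite direction. None of these differences passed.

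The AD_HFS libraries were close to each other: 0.515% of genes differed at least 1.5-fold between them, against 22.4% between the AD_C libraries, 25.5% between the ASC_HFS libraries and 29.4% between the ASC_C libraries. They still differed beyond counting error in 32.0% of genes, against 79.1% for AD_C, 40.9% for ASC_HFS and 58.6% for ASC_C. Depth differed between the pairs, so these shares cannot show whether the AD_HFS pair is technical. The pair was counted as 2 libraries. Without AD_C replicate 1, limma-trend called 39.0% of all genes, and of the members Jun, Atf3 and Nr4a1 were higher and Fosb and Fosl1 lower in AD_HFS. The log2 difference of Fos was then 0.16, that of Egr1 -0.09 and that of Nr4a1 0.22. Without AD_C replicate 2, 53.9% of all genes were called, 6 members were lower, and Jun was higher. The log2 differences of Fos, Egr1 and Nr4a1 were then -1.77, -1.89 and -0.87. The direction of Fos, Nr4a1 and Atf3 in AD thus depended on which control library was used.

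**Figure D3:**
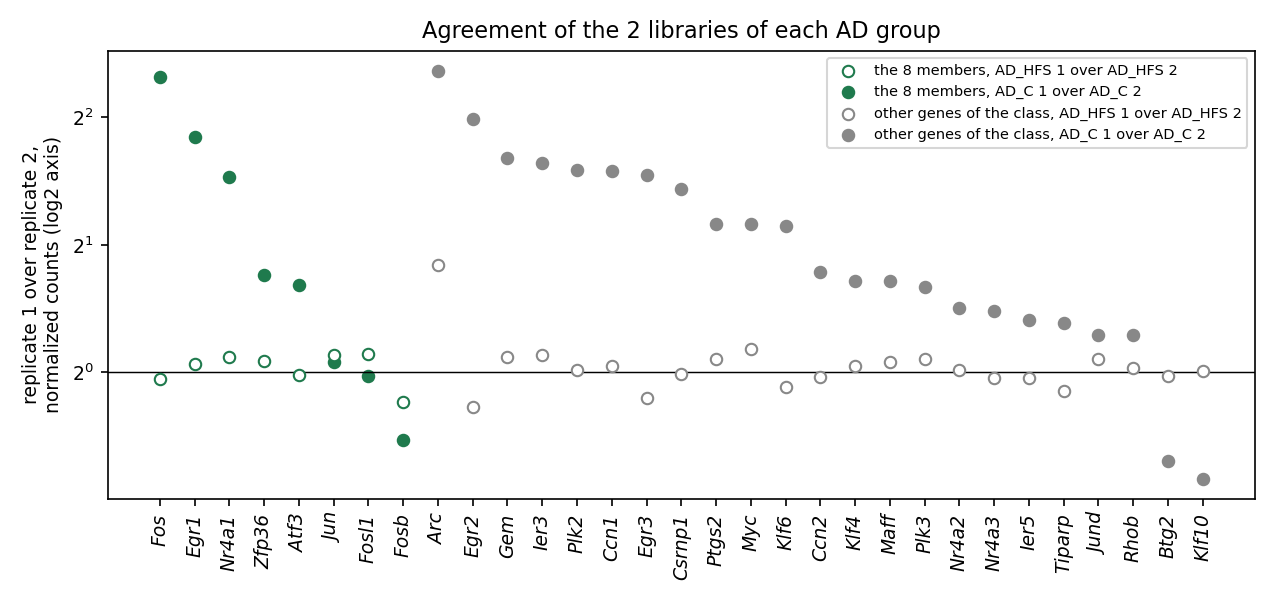
Ratio of replicate 1 to replicate 2 in normalized counts (log2 axis) for the 8 members, in green, and 23 other immediate early genes, in grey, with AD_HFS as open and AD_C as filled circles. Among the members, ratios of AD_C reach 4.99 for Fos. They are at least 1.5 for 5 members and 15 of the other genes, while those of the members in AD_HFS lie close to 1.

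The diet difference itself was compared between the stages in 1 limma-trend fit of all 8 libraries and the 14018 genes in both tables. It was lower in AD than in ASC for 6 of 8 members, against 4.93% of all genes that were lower and 7.53% that were higher by this test. Zfp36 differed by -2.58 ± 0.35 on the log2 scale (adjusted p = 0.00414), since its log2 difference between the diets was -0.41 in AD and 2.17 in ASC. Fosb differed by -2.10 ± 0.33 (adjusted p = 0.00684), Fosl1 by -1.84 ± 0.27 (adjusted p = 0.00533), Nr4a1 by -1.97 ± 0.43 (adjusted p = 0.0208), Atf3 by -1.85 ± 0.38 (adjusted p = 0.0160) and Jun by -1.08 ± 0.29 (adjusted p = 0.0380).

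Fos differed by -2.23 ± 0.69 (adjusted p = 0.0615) and Egr1 by -1.47 ± 0.69 (adjusted p = 0.183), and neither passed. Zfp36, Fosb and Fosl1 passed in every alternative run here and with any 1 library left out. Jun, Nr4a1 and Atf3 did not pass in all of them, with highest adjusted p of 0.181, 0.108 and 0.0730. The count of members that passed was 3 without ASC_HFS replicate 2 or ASC_C replicate 1, 4 without either AD_HFS library, 5 without AD_C replicate 1 and 7 without AD_C replicate 2.

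**Figure D4:**
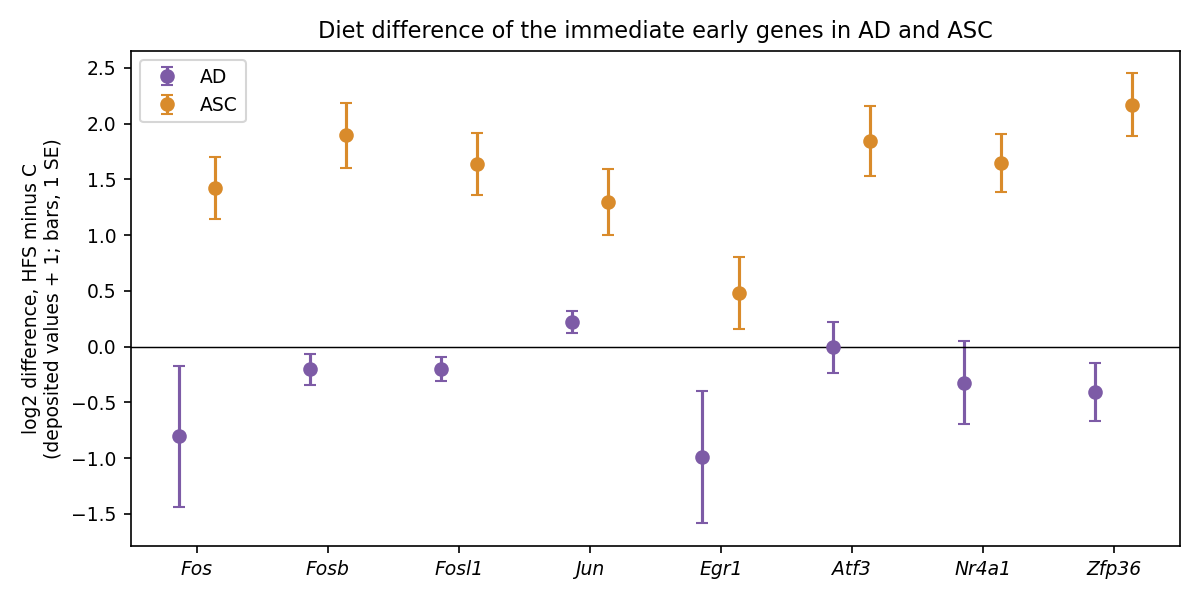
Log2 difference HFS minus C of the 8 members, on log2(deposited value + 1), in AD (purple) and ASC (orange), with bars of 1 SE from limma-trend and n = 2 libraries per group. In ASC 7 members lie between 1.30 and 2.17 and Egr1 at 0.48, while in AD all lie between -0.99 and 0.22, with the widest bars for Fos and Egr1.

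Levels across the stages were set side by side as RPM, a gene's reads scaled to 1 common total of the reads on the 14018 shared genes. The tables were normalized separately, and these levels were not tested. The group mean of every listed member was highest in ASC_HFS. For Egr1 the ASC libraries overlapped, at 182 and 285 RPM in ASC_HFS, against 138 and 234 in ASC_C, and AD_C replicate 1 had 182. Fosb had 1.11 ± 0.130 RPM in AD_HFS and 1.52 ± 0.393 in AD_C, against 261 ± 65.6 in ASC_HFS and 65.2 ± 20.7 in ASC_C (SD, n = 2). Fos had 5.46 ± 0.150 in AD_HFS and 14.2 ± 13.4 in AD_C, against 180 ± 51.3 in ASC_HFS and 63.3 ± 14.9 in ASC_C. AD libraries lay below ASC_C libraries for 6 members, while for Zfp36 and Egr1 AD_C replicate 1 lay within or above the ASC_C range. Zfp36 had 79.8 ± 3.14 in AD_HFS and 111 ± 40.6 in AD_C, against 493 ± 98.4 in ASC_HFS and 107 ± 9.48 in ASC_C, and AD_C did not differ from ASC_C beyond its spread. The members summed to 268 and 283 RPM in AD_HFS, 264 and 497 in AD_C, 2407 and 2948 in ASC_HFS, and 775 and 1102 in ASC_C.

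Of 23 listed other genes of the class, 19 rose in ASC_HFS and none fell, against 9.41% and 9.70% of all genes. Their median log2 difference was 1.15, against -0.04 over all genes. In all 23 both HFS libraries lay above both C libraries, which was so for 28.5% of all genes. Ptgs2, the inducible cyclooxygenase, had 846 and 1686 normalized counts in ASC_HFS, against 212 and 252 in ASC_C (5.46-fold, adjusted p = 0.000734). Ier5 was 4.35-fold higher, the GTPase gene Gem 4.18-fold and the nuclear protein gene Csrnp1 3.58-fold. Klf6, Ccn2, Nr4a2 and Arc did not pass, at log2 differences of 1.15, 0.54, 0.36 and 0.26. With limma-voom 20 passed, with 1 library left out 13 to 21 by limma-voom and none by limma-trend, and 7 when thinned to the shallowest library. In AD none of the 23 passed (median -0.26), although 4 had an unadjusted p under 0.05, and the diet difference was lower in AD than in ASC for 11, against 4.93% of all genes. That last count was 5 after thinning and 1 to 15 with 1 library left out, with 1 without ASC_HFS replicate 2, 2 without ASC_C replicate 1, 4 with either 1 of the AD_HFS libraries left out, and 6 without AD_C replicate 1.

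**Figure D5:**
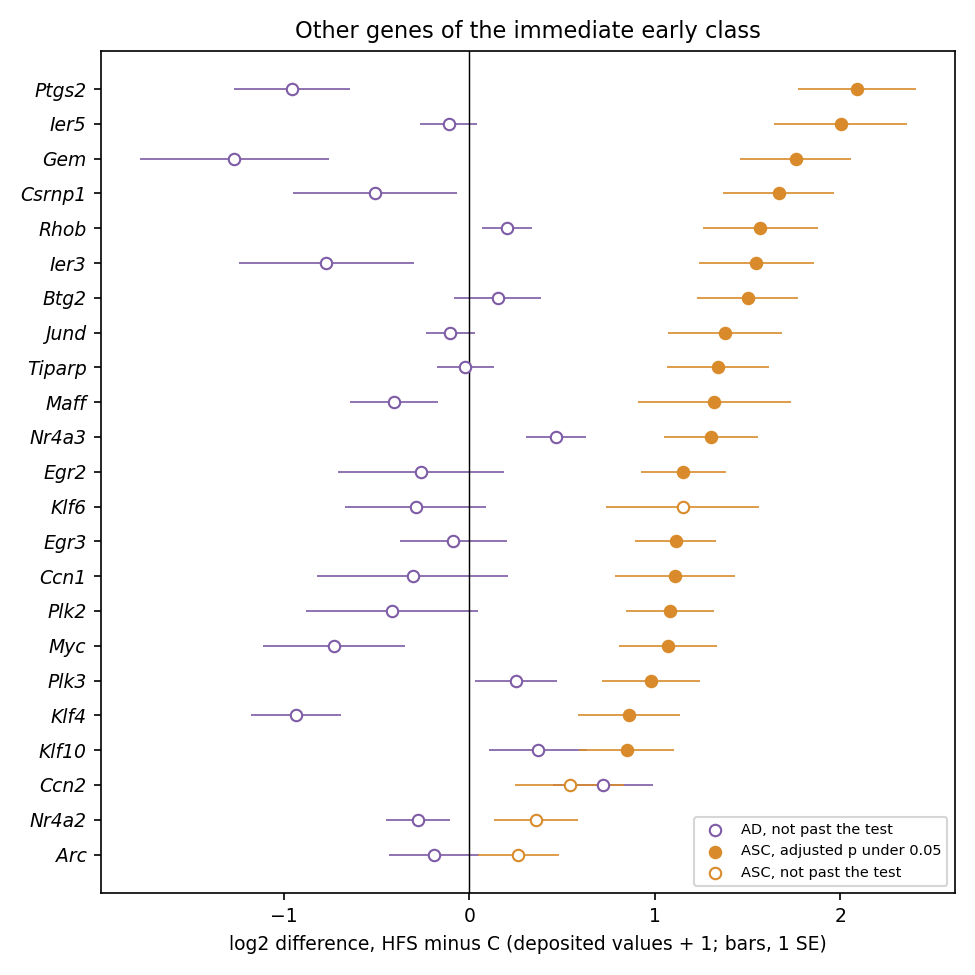
Log2 difference HFS minus C, on log2(deposited value + 1), of 23 other genes of the immediate early class in AD (purple) and ASC (orange), with bars of 1 SE and filled points for an adjusted p under 0.05. In ASC all 23 are above 0 and 19 pass, while in AD 17 are below 0 and none passes.

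Genes that act upstream of the class were counted in 3 lists. Of the SRF partners and SRF itself, 0 of 5 passed in ASC by limma-trend or limma-voom, and 1 had an unadjusted p under 0.05. Srf had a log2 difference of 0.52 (adjusted p = 0.142). Of 6 CREB family genes, Crem alone passed in ASC, with 506 and 562 normalized counts in ASC_HFS, against 156 and 204 in ASC_C (2.97-fold, adjusted p = 0.00360). Crem encodes cAMP-responsive activators and, from an inner promoter, the inducible repressor ICER. None of 10 MAP kinases and MAP kinase kinases passed in ASC, 2 had an unadjusted p under 0.05, and limma-voom called 1 of them lower. The median log2 differences of the 3 lists in ASC were 0.36, 0.33 and 0.08, against -0.04 over all genes. Both HFS libraries lay above both C libraries for 4 of 5, 4 of 6 and 4 of 10 genes, against 28.5% of all genes. They lay below for 2 of the 10 kinase genes, a count given without the share over all genes and not read further. In AD none of these 3 lists held a gene that passed, and 1, 2 and 0 of their genes had an unadjusted p under 0.05. limma-voom likewise called 0 genes in AD in these lists and in those of other immediate early genes, feedback genes, ZFP36 targets and dissociation genes.

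Feedback genes of the MAP kinases rose in ASC_HFS in 6 of 11 cases, against 9.41% of all genes, with a median log2 difference of 0.76. By limma-voom 7 rose, but 4 without ASC_HFS replicate 1, 2 without ASC_HFS replicate 2, and 2 after thinning. Spry2, an inhibitor of receptor tyrosine kinase signalling, was 3.70-fold higher (adjusted p = 0.00213). The phosphatase genes Dusp10, Dusp2 and Dusp5 were 3.30-fold, 2.42-fold and 2.28-fold higher. Dusp1 was not analysed here. None of the 11 passed in AD, where 1 had an unadjusted p under 0.05.

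Of 12 listed bZIP partners of AP-1, 3 rose in ASC_HFS, against 9.41% of all genes, and 9 did not pass. The median log2 difference of the list was 0.51. The small Maf genes Mafg and Maff were among those that rose. Mafg had 1913 and 2491 normalized counts in ASC_HFS, against 482 and 707 in ASC_C (3.70-fold, adjusted p = 0.00175), and Maff, also counted with the class above, was 2.26-fold higher (adjusted p = 0.0393). Neither passed in AD, at log2 differences of -0.01 and -0.41. AP-1 target genes went both ways in ASC. Plau (7.14-fold), Il6 (4.17-fold), Cd44 (3.58-fold) and Plaur (2.87-fold) rose, and Spp1, Ccnd1 and Mmp9 fell, of 14 listed. Of all genes, 9.41% rose and 9.70% fell. Spp1, which encodes osteopontin, had 656 and 624 normalized counts in ASC_HFS, against 4744 and 3905 in ASC_C. In AD only Plau of the AP-1 target genes passed, at 2.63-fold (adjusted p = 0.0351).

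Of 13 listed transcripts that ZFP36 is known to destabilise, 11 rose in ASC_HFS, against 9.41% of all genes, and Csf2 and Vegfa did not pass. After thinning 7 rose, and 8 by limma-voom without ASC_HFS replicate 2. The list had a median log2 difference of 1.72, and 6 of the 15 genes of the full list also stand in other lists used here. The neutrophil chemokine gene Cxcl2 had 2311 and 2926 normalized counts in ASC_HFS, against 43.5 and 68.6 in ASC_C. It was 46.7-fold higher, Il1b 26.7-fold, Cxcl1 19.1-fold and the chemokine gene Ccl3 6.92-fold. The 2 other genes of the family differed, since Zfp36l2 rose 2.81-fold (adjusted p = 0.00893) while Zfp36l1 had a log2 difference of -0.21 (adjusted p = 0.639). In AD none of the 13 passed, 4 had an unadjusted p under 0.05, and the median was 0.05.

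Tissue dissociation with collagenase is another possible cause of differences in these genes, and all groups went through it. A list of heat shock and dissociation stress genes outside the immediate early class had 4 of 21 listed genes higher and none lower in ASC_HFS, against 9.41% of all genes higher, with a median log2 difference of 0.60, and 9 had an unadjusted p under 0.05. By limma-voom 4 were higher and 1 lower, but 14 were higher without ASC_C replicate 2. After thinning 1 was higher, with all 8 libraries 6, and with the crossed pairing, added after seeing the data, 8. Upper quartile and quantile scaling each called 1 lower. The 4 were Nfkbia (4.80-fold), Nfkbiz (3.56-fold), Bhlhe40 (2.58-fold) and Dnajb4 (2.16-fold). The first 2 belong to NF-kB feedback, and Dnajb4 is the heat shock chaperone among them. The list summed to 18028 and 18055 RPM in ASC_HFS, against 11668 and 19050 in ASC_C, so the sums overlapped. Gene by gene, both HFS libraries lay above both C libraries for 13 of the 21, against 28.5% of all genes. They lay below for 1, a count given without the share over all genes. In AD none of the 21 passed, 2 had an unadjusted p under 0.05, and the sums were 3648 and 3601 in AD_HFS, against 3818 and 3913 in AD_C. The part of dissociation in the result was not tested.

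Marker genes of other cell types moved with the diet too, and the ASC counts below stand against 9.41% of all genes higher. Macrophage markers summed to 3471 and 3638 RPM in ASC_HFS, against 1240 and 1332 in ASC_C, with 10 of 15 higher, and C1qc, C1qb, C1qa and Csf1r were the largest changes. In AD they summed to 3840 and 3844 in AD_HFS, against 433 and 820 in AD_C, with 9 of 15 higher. That count, where 1.31% of all genes were higher, was 5 by limma-voom, 4 after thinning and 15 with the replicate block. It was 15 with either 1 of the AD_C libraries left out and 0 with either 1 of the AD_HFS libraries left out. In ASC it was 6 after thinning and 8 by limma-voom with either 1 of the ASC_HFS libraries left out. Endothelial markers summed to 1366 and 1344 in ASC_HFS, against 321 and 673 in ASC_C (8 of 10 higher). In AD they summed to 422 and 412 in AD_HFS, against 326 and 445 in AD_C (1 of 10 higher). The sums in AD overlapped, yet all 10 genes had a positive log2 difference (median 0.65). Of these, 6 had an unadjusted p under 0.05 by limma-trend. Both HFS libraries lay above both C libraries for 8 of the 10 in AD, against 24.2% of all genes. Epithelial and mammary markers summed to 1258 and 1511 in ASC_HFS, against 108 and 145 in ASC_C (7 of 9 higher), and to 7.91 and 7.59 in AD_HFS, against 9.93 and 6.11 in AD_C.

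Progenitor markers, the defining genes of ASC, summed to 45285 and 47884 RPM in ASC_HFS, against 25915 and 29381 in ASC_C, but Pi16, Cd34, Eng and Dpp4 rose while Lum, Thy1 and Pdgfra fell. Adipocyte markers summed to 4741 and 3348 in ASC_HFS, against 1130 and 4608 in ASC_C (4 of 11 higher, against 9.41% of all genes). In AD they summed to 23094 and 22617 in AD_HFS, against 20370 and 24266 in AD_C. Smooth muscle and pericyte markers summed to 336 and 227 in ASC_HFS, against 550 and 483 in ASC_C, where Rgs5 and Notch3 rose and Tagln and Acta2 fell. In AD they summed to 960 and 949 in AD_HFS, against 560 and 451 in AD_C, and none of the 9 passed by limma-trend, although 3 had an unadjusted p under 0.05. Of 10 lymphocyte markers 5 were listed in ASC, and none passed. Cd3g and Cd79a were at 0 reads in both ASC_C libraries, and Cd2 in ASC_C replicate 1. Nkg7 and Gzmb were at 0 reads in ASC_HFS replicate 2, the shallowest library. Of 9 neutrophil markers 2 were listed in ASC, and 1 of them, Mpo, was higher in ASC_HFS. The 2 summed to 17.27 and 19.15 RPM in ASC_HFS, against 1.198 and 4.253 in ASC_C. For each of the 2, both HFS libraries lay above both C libraries. In AD 6 neutrophil markers were listed, and none passed. The part of these cell types in the rise of the immediate early genes was not tested.

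Among genes listed in both tables with a mean value of at least 200 in each, those whose profile over the 8 libraries was most like the mean of the members were Stk40, Boc, Mllt6, Btg1, Slc7a1, Spry2, ENSRNOG00000068537 and Snx18. The measure was the root mean square difference in log2(deposited value + 1), centred within each table, and it was 0.034 for Stk40 and 0.122 for Snx18, against a median of 0.619 over the 4403 genes considered. Among the members themselves it was 0.119 for Nr4a1, the member nearest to the mean, and 0.525 for Egr1, the farthest.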

How the data were processed

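RNA of 8 libraries was sequenced as 50 bp paired-end reads, per the labels, which name both polyA RNA and an rRNA depletion kit. Per the submitters' processing notes, FastQC, STAR, featureCounts and DESeq2 were used with mRatBN7.2 and rn7; versions and settings were not given in the sources used here. The deposited values, 1 table for ASC and 1 for AD, are a signal on a linear scale. Their values show that gene counts were divided by size factors, variance-stabilized and raised to the power of 2, with a lowest value of 34.7 in ASC and 107 in AD for genes without reads. Inverting the transformation gave whole reads for 100% of values (tolerance 1e-06), from 992618 to 119555051 per library. Counting error of a member was 1.73% to 7.69% in ASC and 0.851% to 10.3% in AD, and it covers counting only.

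HFS was tested against C within each table by limma-trend on log2(value + 1), two-sided, in R 4.3.3 with limma 3.58.1. Genes whose mean value reached 10 entered, calls were made at p under 0.05 after Benjamini-Hochberg adjustment across them, and the difference between stages was tested in 1 fit of 4 group means. A permutation test of 2 against 2 libraries cannot go below 0.333. Log2 differences on this scale understate the ratios of normalized counts, for the members too, and most for genes with few reads. The lowest value of the scale was 34.7 in ASC and 107 in AD. The difference between the stages thus joins unequal understatements. Alternatives were pseudocounts of 0.5 and 5, filters, upper quartile and quantile scaling, a replicate block, robust moderation, limma-voom, log2 CPM, thinning, all 8 libraries in 1 fit and each library left out. The fits were run on simulated counts with the same relative spread for all genes and groups of a table. That setting does not cover the unequal spread of the AD_HFS and AD_C pairs. All members were named; of each other list, up to 4 called genes per direction with the largest difference, a mean value of at least 50 and groups that did not overlap. Genes that did not pass, upstream genes and single examples beyond these were named after their values were seen. The members and lists were chosen with earlier results of these data known. Summaries were made with pandas 2.3.3 and numpy 2.4.6 in Python 3.11.15, and figures with matplotlib 3.10.9. A gene of the bZIP partner list is not reported here.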

Additional observations from a re-analysis of the deposited data

Results flagged for a closer look

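The diet difference of 6 members was not the same in AD and ASC by the test of the difference itself (limma-trend, adjusted over 14018 genes), as also given above. AD minus ASC, on the log2 scale, it was -2.578 for Zfp36, -2.095 for Fosb, -1.971 for Nr4a1, -1.853 for Atf3, -1.836 for Fosl1 and -1.082 for Jun. Each of the 6 rose in ASC_HFS, and none passed in AD.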

How the results depend on the processing

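Pseudocounts, filters and robust moderation changed no call of a member. Of the values of single members outside the sets with a library left out, 102 of 104 in ASC, 94 of 96 in AD and 81 of 88 for the difference between AD and ASC kept their direction and their side of the threshold. Those that changed in ASC were Fos with all 8 libraries (adjusted p = 0.0555) and Jun after thinning (0.0516). In AD they were Atf3, at 0.0025 with quantile normalization and 0.0144 with limma-voom. For the difference between AD and ASC, Jun lost its call under quantile normalization, the replicate block and log2 CPM (adjusted p from 0.0517 to 0.0559), and Nr4a1 lost it under limma-voom, log2 CPM and thinning (0.0562 to 0.108). Log2 CPM moved the median of that difference over all genes to 0.21, against 0.07. The causes were not tested.

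Counts over all genes moved more. The ASC comparison called 1345 genes higher and 1386 lower, but 314 and 197 after thinning. The AD comparison called 238 higher and 6 lower, against 92 and 3 with upper quartile scaling, 147 and 3 with limma-voom, 109 and 2 with log2 CPM, 66 and 2 after thinning and 403 and 20 with all 8 libraries. The difference between AD and ASC, at 1056 higher and 691 lower, gave 474 and 315 after thinning.

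The replicate numbers share no stated source, and same-numbered libraries deviated with correlations of -0.123 in ASC and 0.0014 in AD. With 2 libraries per group, and AD_HFS libraries that hardly differ, these values cannot decide whether the numbers mark pairs. The replicate block gave 1425 higher and 1551 lower in ASC, 599 and 62 in AD and 861 and 561 for the difference, where Fos then passed (adjusted p = 0.0278). With the pairs crossed in ASC, added after seeing the data, 1735 were higher and 1899 lower, and 7 members rose.

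With 1 library left out, the lone library is assumed to vary like the others. By limma-trend, ASC then had no gene and no member called, whichever library was left out. In AD 0 to 5018 genes were higher and 0 to 4812 lower, with 0 to 3 members higher and 0 to 6 lower. For the difference, 268 to 1451 were higher and 157 to 1000 lower, with 3 to 7 members lower. By limma-voom, 772 genes were higher and 322 lower in ASC without ASC_HFS replicate 1, and 821 and 585 without ASC_HFS replicate 2. In AD 3839 were higher and 3510 lower without AD_C replicate 1, with 3 members higher and 2 lower, and 4655 and 4731 without AD_C replicate 2, with 1 higher and 6 lower. The log2 differences in AD ran from -1.77 to 0.16 for Fos, from -0.87 to 0.22 for Nr4a1 and from -0.33 to 0.32 for Atf3 by limma-trend. By limma-voom without AD_C replicate 1 they were 0.22, 0.35 and 0.34, and Atf3 was at 0.0224 and 0.0024 without AD_HFS replicate 1 and 2.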
